A study of Bos taurus with 90 samples.

Results

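The 100 genes described here were those with the most raised RNA level at the end of the first high concentrate phase in the liver of both breeds of steer. They were chosen by their phase means: per library, log2 of CPM (a gene's reads per 1000000 reads counted on genes) plus 0.5 was averaged per breed and phase, and the H1 mean was set against the larger of the ZG and H2 means. Of 24616 genes in the count table, 8987 had a mean of 5 CPM or more, and 6629 of those had ZG and H2 means less than 0.4 apart in each breed. Among these 6629, 2546 (38.4%) had an H1 mean above both later phases in both breeds, and the 100 members were the genes with the largest score, the smaller of the H1 excesses of the breeds.

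Liver was biopsied in steers of 2 breeds, Charolais (CH) and Holstein-Friesian (HF), at the end of 3 successive feeding phases: a barley-based high-concentrate diet in the growing phase (H1), zero-grazed grass (ZG), and the same high-concentrate diet in the finishing phase (H2). Within each breed and phase, the steers had been selected at both ends of residual feed intake (RFI, the feed eaten beyond what size and growth predict), low RFI being the feed-efficient end. The 90 libraries comprised, for low and high RFI respectively, 9 and 11 CH and 7 and 9 HF libraries in H1, 3 and 3 CH and 10 and 8 HF libraries in ZG, and 9 and 8 CH and 5 and 8 HF libraries in H2. All animals were castrated males of the named breed with no further treatment, all had eaten H1 before ZG and ZG before H2, and the diets were separated by grass silage and by grazing. Phase, age and time of sampling therefore ran together and cannot be told apart, whereas H1 and H2 steers ate the same concentrate.

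The liver takes up absorbed nutrients from the portal blood, makes glucose, lipoproteins, bile acids and most plasma proteins, and its transcript levels respond to feeding, growth and hormones. Much of this control runs through nuclear receptors, which bind lipids or bile acids and switch metabolic genes, and through the co-regulators and histone-modifying enzymes that they recruit. NR0B2, known as small heterodimer partner, is such a regulator: it lacks a DNA-binding domain, is induced through the bile acid receptor FXR and represses bile acid synthesis.

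Library totals ran from 9097695 to 63621304 reads on genes, with a median of 18858293, and 7 libraries had a TMM factor (the scaling that edgeR sets beside the total) under 0.8. These were 4 HF ZG libraries and 3 CH H2 libraries. No pair of libraries of a group was close enough to be a duplicate, since the lowest chi-square per gene among 329 pairs was 15.3. The files carry only Ensembl identifiers, and gene names were available for 328 of the 24616 genes, among them 8 of the 100 members. Of the markers listed for hepatocytes and the other liver cell types, 0 had a name here, so that the tissue label and the mix of cells could not be checked. In bulk tissue, fewer cells of a type and less RNA per cell cannot be told apart.

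The rise was of moderate size and came on a low to middling abundance. The scores of the members, a log2 difference, ran from 0.65 to 1.31 with a median of 0.77, and 10 members had a score of 1 or more. As a ratio of H1 to the mean of ZG and H2 on the log scale, the members were higher in H1 by a median of 1.91-fold in CH (range 1.60 to 2.81) and 2.06-fold in HF (1.58 to 3.24). The score was larger in HF than in CH for 87 members. Since these values chose the members, they were not tested. The last members inside the limit, ranked 98 to 100, scored 0.6487, 0.6452 and 0.6451, and the next genes outside it, ranked 101 to 103, scored 0.6425, 0.6422 and 0.6406, so no gap marked the edge of the list. With library totals the reverse pattern was smaller: 1461 (22.0%) of the 6629 eligible genes were lowest in H1 in both breeds, and the gene ranked 100 among them had fallen by 0.26 against 0.65 for the member of that rank. With these totals the median of all genes was itself higher in H1, by 0.08 in CH and 0.15 in HF. The reverse pattern was not counted with TMM-scaled totals.

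Mean CPM over the 90 libraries had a median of 12.1 for the members and 20.2 for all 8987 genes. This mean was below 10 CPM for 44 members, 10 to 100 CPM for 48, and 100 CPM or more for 8. The fewest reads of any member in a library was 3, so 0 members were unread in any library. Gene lengths were not used here, so CPM compare a gene between libraries and not one gene with another. The spread within groups was wide: the SD of log2 CPM within a group of breed, phase and RFI had a median of 0.61 for the members and 0.32 for all 8987 genes.

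The gene with the largest score was ENSBTAG00000021595, for which no name was available. In CH it had a median of 25.2 CPM in H1 (lowest 15.5, highest 53.4), 11.0 CPM in ZG (2.29 to 21.7) and 9.20 CPM in H2 (1.76 to 18.0). In HF the medians were 25.2 CPM in H1 (14.8 to 46.5), 9.00 CPM in ZG (1.00 to 24.9) and 7.80 CPM in H2 (3.46 to 21.1). The H1 medians were alike in the breeds and the later groups reached into the H1 range in each. The member with most reads was ENSBTAG00000010123, also unnamed, which ranked 4 with a score of 1.18. Its CH medians were 3923 CPM in H1 (2993 to 4950), 1903 CPM in ZG (395 to 4097) and 1804 CPM in H2 (417 to 4437). Its HF medians were 3911 CPM in H1 (2359 to 4847), 1448 CPM in ZG (151 to 4620) and 1811 CPM in H2 (771 to 3684). This 1 gene stayed within about the same band in every H1 library, while single later libraries ranged from that band down to a small part of it.

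Among the named members, CITED4 and NR0B2 are nuclear regulators of transcription. CITED4, which binds the co-activators CBP and p300, ranked 8 with a score of 1.05. In CH its median was 7.14 CPM in H1 (3.26 to 14.7), 3.47 CPM in ZG (1.17 to 6.85) and 3.40 CPM in H2 (1.26 to 6.46). In HF it was 6.82 CPM in H1 (2.75 to 23.5), 2.37 CPM in ZG (0.59 to 9.97) and 3.31 CPM in H2 (1.61 to 5.84). Of the 20 CH libraries of H1, 11 lay above every later CH library, and of the 16 HF libraries of H1, 3 did. NR0B2 ranked 14 with a score of 0.96. Its CH medians were 7.49 CPM in H1 (2.49 to 19.7), 4.38 CPM in ZG (1.17 to 11.2) and 3.71 CPM in H2 (0.25 to 7.77). Its HF medians were 9.85 CPM in H1 (3.21 to 17.9), 3.69 CPM in ZG (0.59 to 11.0) and 4.53 CPM in H2 (1.45 to 7.96). The groups overlapped for NR0B2 in both breeds. HDAC5, a class IIa histone deacetylase that represses transcription and moves between nucleus and cytoplasm, ranked 95 with a score of 0.65. Its CH medians were 44.1 CPM in H1 (33.2 to 60.9), 34.1 CPM in ZG (10.2 to 45.2) and 22.2 CPM in H2 (5.19 to 43.7). Its HF medians were 42.9 CPM in H1 (31.0 to 54.7), 25.6 CPM in ZG (4.37 to 50.1) and 24.7 CPM in H2 (9.28 to 45.8).

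Signalling and secreted proteins formed the next group. RGS14, a regulator of G protein signalling that speeds the hydrolysis of GTP on G alpha subunits, ranked 30 with a score of 0.82. Its CH medians were 57.5 CPM in H1 (43.1 to 83.4), 37.1 CPM in ZG (13.1 to 54.6) and 23.7 CPM in H2 (7.45 to 54.2). Its HF medians were 56.3 CPM in H1 (36.0 to 82.5), 30.1 CPM in ZG (5.13 to 51.3) and 28.6 CPM in H2 (9.45 to 48.7). RGS14 had the largest number of H1 libraries above every later library of the breed among the named members, 13 of 20 in CH and 9 of 16 in HF. METRNL, a secreted meteorin-like protein, ranked 46 with a score of 0.78. In CH it had 12.4 CPM in H1 (8.34 to 22.9), 8.06 CPM in ZG (2.69 to 11.0) and 4.99 CPM in H2 (1.17 to 13.3) at the median. In HF it had 10.8 CPM in H1 (7.68 to 14.9), 5.00 CPM in ZG (1.02 to 12.8) and 5.87 CPM in H2 (1.91 to 16.8). The highest HF H2 library thus exceeded all HF H1 libraries for METRNL.

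The remaining named members act in the cytoskeleton and in ubiquitin ligases. TUBB4B, a beta tubulin of microtubules, ranked 41 with a score of 0.80. In CH it had a median of 49.3 CPM in H1 (32.1 to 82.0), 31.7 CPM in ZG (7.95 to 52.8) and 21.8 CPM in H2 (5.02 to 57.0). In HF it had a median of 52.9 CPM in H1 (31.6 to 70.9), 26.0 CPM in ZG (4.72 to 72.4) and 26.0 CPM in H2 (8.87 to 59.1). Tubulin genes share much sequence, so the split of short reads between TUBB4B and its relatives is uncertain. RAB40C, a small GTPase with a SOCS box that joins it to a ubiquitin ligase, ranked 50 with a score of 0.77. Its CH medians were 13.1 CPM in H1 (9.16 to 16.8), 8.03 CPM in ZG (2.56 to 13.4) and 5.74 CPM in H2 (1.59 to 13.3). Its HF medians were 10.8 CPM in H1 (7.13 to 14.7), 6.79 CPM in ZG (0.89 to 11.6) and 6.75 CPM in H2 (2.32 to 12.1). ASB2, the substrate-binding subunit of another ubiquitin ligase, ranked 86 with a score of 0.67. Its CH medians were 5.11 CPM in H1 (2.35 to 24.3), 3.34 CPM in ZG (1.21 to 12.4) and 2.77 CPM in H2 (0.75 to 8.25). Its HF medians were 5.98 CPM in H1 (2.54 to 17.7), 3.46 CPM in ZG (1.64 to 18.6) and 3.03 CPM in H2 (2.04 to 5.31). The H1 and later groups overlapped for each of these genes in both breeds.

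**Figure D1:**
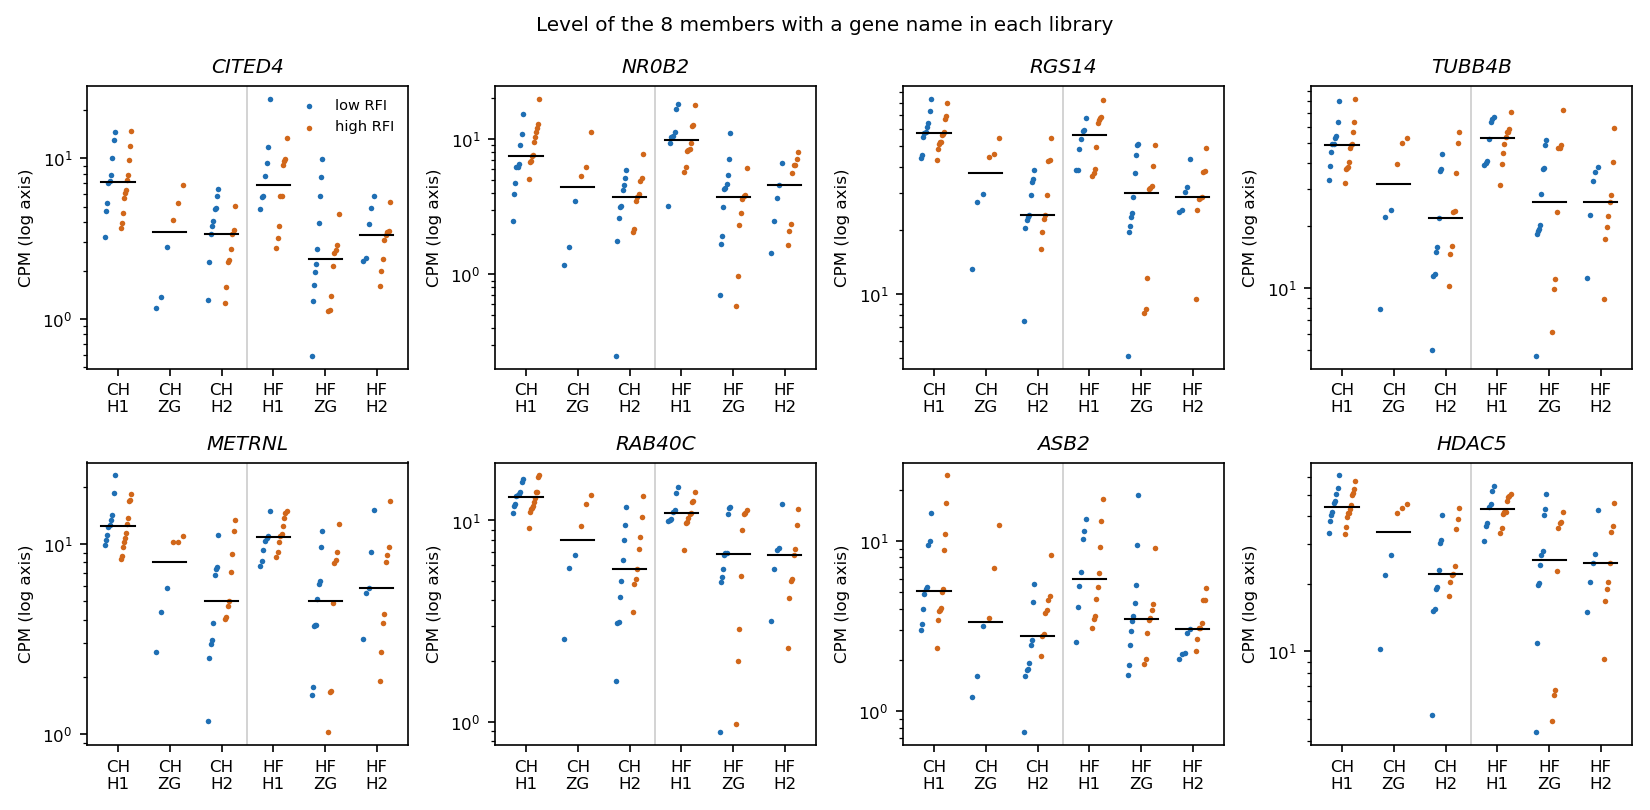
CPM on a log axis of the 8 members with a gene name in each of the 90 libraries, by breed and phase, coloured by RFI, with a line at the median of each breed and phase. The H1 medians are the highest of the 3 phases in both breeds, and the later phases spread further down, as for RGS14 with 43.1 to 83.4 CPM in CH H1 against 7.45 to 54.2 CPM in CH H2.

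The members were at a steady level in H1 and at a scattered level later. The mean of log2(CPM + 0.5) over the 100 members lay between 4.27 and 4.91 in the 20 CH libraries of H1 (SD 0.17) and between 4.24 and 4.92 in the 16 HF libraries (SD 0.17). In ZG it lay between 2.57 and 4.23 in CH (SD 0.62, n = 6) and between 1.63 and 4.29 in HF (SD 0.86, n = 18). In H2 it lay between 2.10 and 4.21 in CH (SD 0.55, n = 17) and between 2.71 and 4.30 in HF (SD 0.47, n = 13). All 23 later CH libraries were below the lowest CH library of H1, and 3 of the 31 later HF libraries were above the lowest HF library of H1. The rule had chosen the members by their means in these libraries, so this separation is a description. The matching level and spread of all genes were not computed. For single members the separation was incomplete: every H1 library lay above every later library of the breed for 3 members in CH, ranked 11, 25 and 34, and for 0 members in HF. How many of all genes did so was not counted, so these counts cannot be called many or few.

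**Figure D2:**
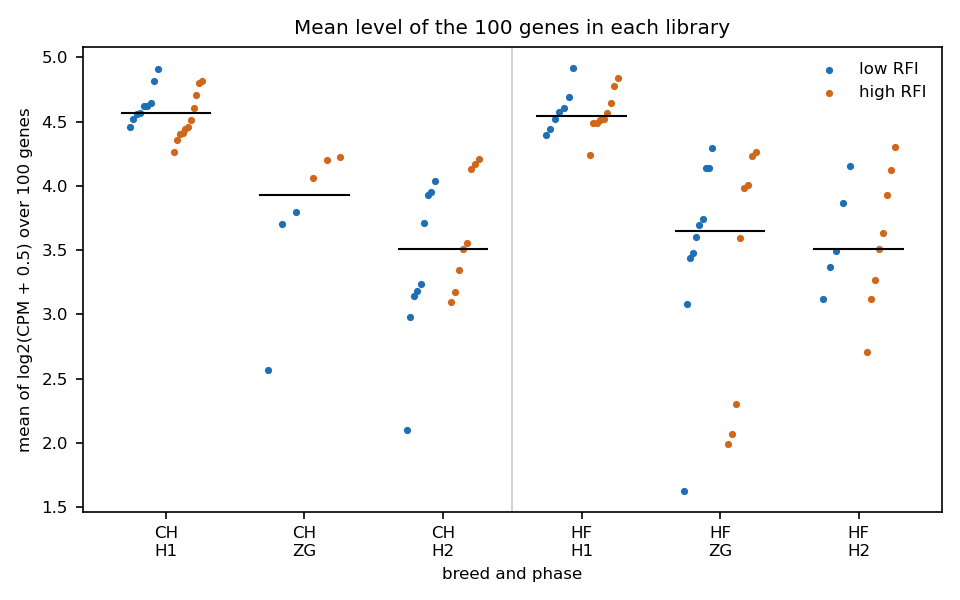
Mean of log2(CPM + 0.5) over the 100 members in each library, by breed and phase, coloured by RFI, with a line at the median. H1 libraries lie between 4.24 and 4.92, whereas later libraries reach from that level down to 1.63, with 4 HF ZG libraries at 2.30 or lower.

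ZG and H2, which the rule held within 0.4 of each other, differed in the same direction as genes at large. In CH, 93 of the 100 members had a higher mean in ZG than in H2, by a median log2 difference of 0.30, and 82.4% of the 8987 genes also did. In HF, 16 members had a higher mean in ZG, with a median log2 difference of -0.17, and 25.7% of the 8987 genes did.

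Some steers gave a liver sample in more than 1 phase, which allowed the change to be read within an animal, although these libraries also took part in the choice of members. There were 12 such steers with an H1 library, 6 of each breed, giving 14 pairs, 6 of H1 with ZG and 8 of H1 with H2. In the pairs, 81 to 100 of the 100 members were higher in H1 (median 97.5), and 13 of the 14 pairs had 90 or more. Over all 8987 genes, 39.4% to 80.9% were higher in H1 in these pairs (median 62.7%). The members' median log2 difference, H1 minus later, ran from 0.38 in HF steer 2071 (H2) to 2.15 in HF steer 2069 (ZG). The lone pair with fewer than 90 members higher in H1 was that of steer 2071, with 81. TUBB4B was higher in H1 in 14 of the 14 pairs, CITED4, RGS14 and RAB40C in 13, and NR0B2, METRNL, ASB2 and HDAC5 in 12. In 6 of the 14 pairs the steer was labelled low RFI in 1 phase and high RFI in the other. The largest fall belonged to the library of steer 2069 in ZG, which is 1 of the 7 libraries with a TMM factor under 0.8.

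**Figure D3:**
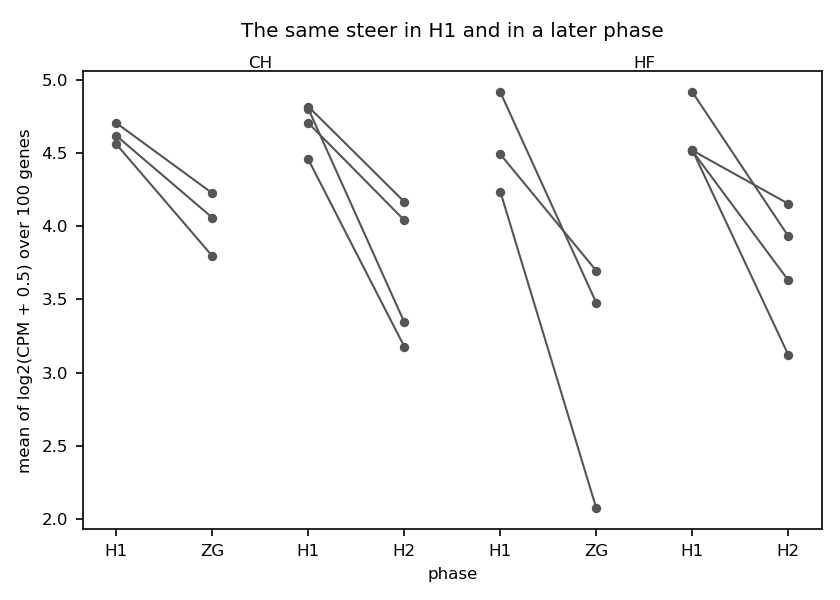
Mean of log2(CPM + 0.5) over the 100 members in the libraries of the same steer in H1 and in a later phase, a line per pair, 7 pairs in CH and 7 in HF. Every line falls, least for HF steer 2071 (4.52 in H1 and 4.15 in H2) and most for HF steer 2069 (4.24 in H1 and 2.07 in ZG).

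The members rose and fell together from library to library. All correlations in this paragraph were taken after each library's group mean, for its breed, phase and RFI, was subtracted from the log2 values. The median Pearson correlation between pairs of members over the libraries of a breed and phase was 0.32 in CH H1 and 0.30 in HF H1, 0.81 in CH ZG and 0.90 in HF ZG, and 0.76 in CH H2 and 0.76 in HF H2. For every 5th gene of the 8987, the same median was between 0.06 and 0.15. With each library's group mean taken off, 78 of the members had a correlation of 0.8 or more over the 90 libraries with the mean of the other members, and 16 more had 0.5 or more. HDAC5 (0.95), RAB40C (0.94), RGS14 (0.92), TUBB4B (0.92) and METRNL (0.86) were among the close followers, and NR0B2 (0.68) and CITED4 (0.64) followed less closely. ASB2 (0.04) was 1 of 6 members with a correlation under 0.5, the others being ranked 43, 74, 83, 84 and 93. This shared variation was not particular to the members: 1937 (21.8%) of the other 8887 genes also had a correlation of 0.8 or more with the members' mean, and 199 had -0.5 or less. All points share their library and its total, and these correlations are given as a description.

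The level of the members moved with the share of a library's reads that fell on its 10 most counted genes. This share ran from 23.2% to 30.3% in CH H1, 22.9% to 29.3% in HF H1, 24.0% to 32.2% in CH ZG, 23.8% to 38.5% in HF ZG, 25.0% to 38.0% in CH H2 and 26.4% to 34.8% in HF H2. Within a breed and phase, libraries with a larger share had a lower mean level of the members. CPM are shares of a total, so this share and the members' CPM are tied by arithmetic. How much of the members' lower level that tie accounts for was not tested. The relation of share and level was not computed for other genes or with TMM-scaled totals. The p-values below therefore do not show that it is particular to the members. In CH H2 Pearson's r was -0.91 (permutation p = 1e-05, the smallest that 100000 permutations can give, adjusted p = 8e-05) and Spearman's rho -0.86 (permutation p = 4e-05, adjusted p = 0.00032), with r = -0.87 after the 2 libraries farthest from the median share were left out. The 14 CH H2 libraries with a TMM factor of 0.8 or more had r = -0.89 (permutation p = 5e-05, adjusted p = 0.000267). In HF H2 r was -0.84 (permutation p = 0.00023, adjusted p = 0.00092) and rho -0.79 (permutation p = 0.00218, adjusted p = 0.00698), with r = -0.71 without the 2 farthest. In HF ZG r over all 18 libraries was -0.89 (permutation p = 1e-05, adjusted p = 8e-05) and rho -0.89 (permutation p = 1e-05, adjusted p = 0.00016). There 4 libraries, those with a TMM factor under 0.8, stood apart. The 14 others had r = -0.66 (permutation p = 0.00971, adjusted p = 0.023) and rho = -0.79 (permutation p = 0.00117, adjusted p = 0.00468), with r = -0.74 without the 2 farthest. In CH H1 r was -0.66 (permutation p = 0.00164, adjusted p = 0.00525) and rho -0.59 (permutation p = 0.00743, adjusted p = 0.0198), with r = -0.56 without the 2 farthest. In HF H1 r was -0.62 (permutation p = 0.0101, adjusted p = 0.023) and rho -0.36 (permutation p = 0.166, adjusted p = 0.265), and r fell to -0.14 without the 2 farthest, so that this relation rests on those libraries. In CH ZG, with 6 libraries, r was -0.94 (exact permutation p = 0.0639, adjusted p = 0.112) and rho -0.77 (exact permutation p = 0.103, adjusted p = 0.192), with r = -0.71 without the 2 farthest. With the number of reads on genes, r ran from 0.13 to 0.50, and none of its adjusted permutation p was below 0.112. The adjusted values cover 16 relations, all tests were two-sided, and the part of this share in the phase difference was not tested.

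**Figure D4:**
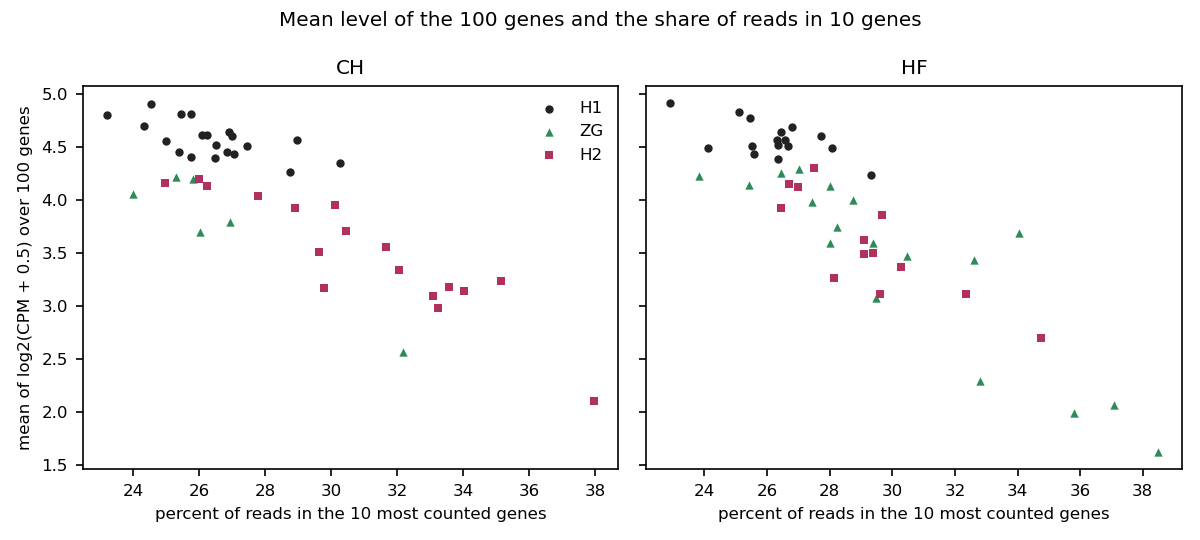
Mean of log2(CPM + 0.5) over the 100 members against the percent of a library's reads in its 10 most counted genes, a point per library, with CH and HF in separate panels and a symbol per phase. The points slope downward, from H1 libraries at 22.9% to 30.3% and a level of 4.24 or more to the HF ZG library at 38.5% and 1.63.

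CPM are shares of a library's total, so the phase difference was also computed with TMM-scaled totals. All 100 members then still had a score above 0 in each breed. They had been chosen for scores of 0.6451 or more in these same libraries, so scores above 0 here and below are a description. The members' median H1 excess over the mean of ZG and H2 was 0.93 with library totals and 0.78 with TMM in CH, and 1.04 and 0.82 in HF, while the median over all 8987 genes moved from 0.08 to -0.08 in CH and from 0.15 to -0.08 in HF. Without the 7 libraries with a TMM factor under 0.8, an alternative chosen after seeing the data, all 100 members kept a score above 0, with a median of 0.69 in place of 0.77 and a lowest value of 0.32. Which genes made the first 100 was far less stable: the rule chose 31 of them again with TMM, 43 without those 7 libraries, and 23 when CH ZG steer 788 was left out.

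The rule did not use the RFI labels, although it used the level of every library. The effect of RFI in each breed and phase was tested with edgeR's quasi-likelihood test, adjusted by Benjamini-Hochberg over all genes tested, with low RFI over high RFI as the fold change. At an adjusted p under 0.1, 0 of the 100 members were called in any of the 6 comparisons or over all 90 libraries. In the 3 CH ZG steers of low RFI, the members' mean level was 2.57, 3.70 and 3.80, and in the 3 of high RFI it was 4.06, 4.20 and 4.23, so the groups did not overlap. The members' median log2 fold change there was -0.73, against 0.04 over the 13025 genes tested, and 6 members had a positive value against 52.9% of all genes. At an unadjusted p under 0.05, 37 members were lower and 1 was higher in low RFI, against 956 and 799 of all genes. Steer 788 was the lowest, and without it the median was -0.44. These values are not independent of the choice of members: the score was the smaller in CH for 87 members, 93 had ZG as the higher later phase in CH, and the rule chose 23 members again without steer 788. The shift in CH ZG is therefore given as a description. The 10 most counted genes took 26.0%, 26.9% and 32.2% of reads in the low RFI libraries, the last in steer 788, and 24.0%, 25.3% and 25.8% in the high RFI libraries, and the part of this in the difference was not tested.

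The same 6 libraries gave the named members their names: all 8 stand in the study's own list of genes differing by RFI in CH ZG, so their values there are a description and no independent evidence. METRNL had 2.69, 4.40 and 5.86 CPM in low RFI and 10.3, 10.3 and 11.0 CPM in high RFI, and its log2 fold change was -1.23 ± 0.27 (SE), with an edgeR adjusted p of 0.365. NR0B2 had 1.17, 1.59 and 3.47 CPM in low RFI and 5.30, 6.20 and 11.2 CPM in high RFI (log2 fold change -1.84 ± 0.46). CITED4 had 1.17, 1.36 and 2.81 CPM in low RFI and 4.13, 5.24 and 6.85 CPM in high RFI (log2 fold change -1.56 ± 0.38). The low and high RFI libraries did not overlap for any of the 8 named members. How many of all genes were separated in this way was not counted. The other named members had log2 fold changes from -0.99 (RGS14) to -1.85 (ASB2), and for each of the 8 the adjusted p was 0.365 in edgeR. DESeq2, run as an alternative, called 9 members lower in low RFI CH steers on ZG against 0.956% of all genes it tested, namely these 8 and the unnamed member ranked 7, which is in the same list.

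In the other comparisons by RFI the members' medians lay nearer 0. In CH H1 (edgeR, 0.0155% of 12920 genes called higher and 0% lower in low RFI) the members' median was 0.02, and 10 members were higher and 4 lower at an unadjusted p under 0.05, against 780 and 738 of all genes. The smallest p belonged to the member ranked 97, whose log2 fold change was 0.33 ± 0.10 (SE) at an edgeR adjusted p of 0.256. In HF H1 (0% of 13025 genes called in either direction) the median was -0.01. Here 5 members were higher and 4 lower at an unadjusted p under 0.05, against 422 and 441 of all genes. There the smallest p was that of the member ranked 81, with -0.67 ± 0.18 (SE, adjusted p = 0.569 in edgeR). In CH H2 the median was -0.13. Of the members, 2 were higher and 1 lower at an unadjusted p under 0.05, against 197 and 158 of 12417 genes. In HF ZG the median was 0.19, with 3 higher and 0 lower at that p, against 101 and 160 of 12492 genes. This median was -0.13 without the 4 libraries with a TMM factor under 0.8, 3 of which were of high RFI. In HF H2 the median was 0.04, with 1 higher and 1 lower at that p, against 177 and 258 of 12549 genes. The sign of this median rested on single low RFI libraries: it was -0.10 without steer 2071, -0.06 without steer 1657 and 0.15 without steer 2220. In CH ZG, CH H2, HF ZG and HF H2, edgeR called 0% of all genes in either direction. Over all 90 libraries, 0.0215% of 13945 genes were called lower and 0% higher, and the members' median was -0.04. In that fit 4 members were higher and 0 lower at an unadjusted p under 0.05, against 365 and 287 of all genes. The member ranked 63 had the smallest p there, at a log2 fold change of 0.29 ± 0.12 (SE) and an edgeR adjusted p of 1.0. DESeq2 and limma-voom called 0 members in the comparisons other than CH ZG, and limma-voom called 0 in CH ZG too.

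The breeds differed for a few members in H1. With edgeR and CH over HF as the fold change, 4 members were upregulated in CH against 1.19% of 13009 genes, and 2 were downregulated against 3.08%. Whether these counts differ from the background was not tested. The rule used the mean of each breed in every phase. The breed comparisons are therefore not independent of the choice of members and are given as a description. RAB40C had a mean of 13.1 ± 2.00 CPM in CH (SD, n = 20) and 11.2 ± 1.91 CPM in HF (SD, n = 16), and the fitted log2 fold change was 0.28 ± 0.07 (SE) at an edgeR adjusted p of 0.0232. The ranges overlapped, with 4 CH libraries above every HF library. The members ranked 98, 68 and 61 were also upregulated in CH, by log2 fold changes of 0.42, 0.36 and 0.23 (edgeR adjusted p = 0.0257, 0.0512 and 0.0702). ENSBTAG00000011196, ranked 99, had 198 ± 37.1 CPM in CH and 277 ± 59.9 CPM in HF, and the fitted log2 fold change was -0.44 ± 0.10 (SE) at an edgeR adjusted p of 0.00936, with 11 of 20 CH libraries below every HF library. ENSBTAG00000001037, ranked 80, had 7.68 ± 1.38 CPM in CH and 9.69 ± 1.90 CPM in HF, and the fitted log2 fold change was -0.29 ± 0.07 (SE, edgeR adjusted p = 0.0232). None of these 6 calls held in limma-voom with a replicate block for the steer, where the adjusted p of the 6 ran from 0.177 to 0.802, or with all 12 groups in 1 edgeR fit, where it ran from 0.183 to 0.759. No steer repeats within H1, and both fits took all 90 libraries. The more scattered ZG and H2 libraries were thus part of both fits, and why the calls were lost was not tested. The fold changes of the 6 members kept their direction in both fits.

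In ZG, edgeR called 0 members between the breeds, against 0.0153% of 13057 genes higher and 0% lower in CH. An unadjusted p under 0.05 was found for 0 members, against 186 genes higher and 174 lower among all. The members' median log2 fold change was 0.11 and turned to -0.19 without the 4 HF libraries with a TMM factor under 0.8. In H2, 0 members were called, against 0.275% of 12384 genes higher and 0.299% lower in CH. Of the members, 4 were higher and 1 lower at an unadjusted p under 0.05, against 399 and 442 of all genes. DESeq2 called 0 members in ZG and in H2. Whether the breed difference of a member changed from phase to phase was not tested.

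**Figure D5:**
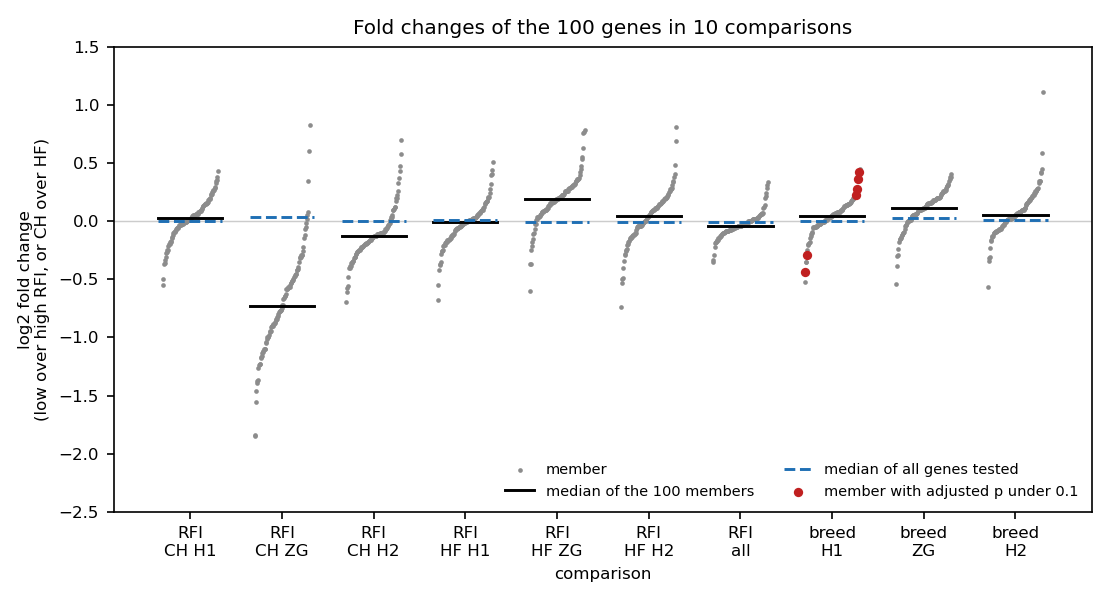
Fitted log2 fold changes of the 100 members, sorted within each comparison, for low over high RFI in each breed and phase and over all libraries, and for CH over HF in each phase; solid lines are medians of the members and dashed lines medians of all genes tested. The members lie lowest for RFI in CH ZG (median -0.73), and the 6 members in red, all in the H1 breed comparison, had an adjusted p under 0.1.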

How the data were processed

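Per the methods, stranded mRNA libraries were sequenced as single-end reads, trimmed with cutadapt, mapped by STAR against UMD3.1, a bovine assembly, and counted per Ensembl gene, and the authors deposited raw counts. The submitters' processing notes name CASAVA 1.8, FastQC 0.11.5 and STAR 2.5.3a. Which strand column was counted, and sequencing batches, were not given in the sources used here.

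Members and lists were chosen with earlier results of these data known. CPM were computed from library totals, with a pseudocount of 0.5 for log2. RFI was tested within each breed and phase and over all libraries, and breed within each phase, with edgeR (4.0.16) after filterByExpr and TMM, at an adjusted p under 0.1, the study's threshold. DESeq2 (1.42.0), limma-voom (3.58.1), other filters, scalings and thresholds, and libraries left out were alternatives. R 4.3.3 and Python 3.11.15 with scipy 1.17.1 were used, and the edgeR steps were tested on simulated data with changed genes. The steer block joined libraries with the same number in a breed, which mark the same animal: 14 steers had more than 1 library, and the estimated correlation within a steer was 0.12. Number 1797 stood in both breeds. Depth limits the low members, whose fewest reads in a library was 3.

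Names came from the study's supplementary gene lists, which pair identifiers with symbols. The genes named are members with a name, unnamed members with the largest score or most reads, members with the smallest p or a call, and those at the edge of the list. The members with the lowest mean CPM ranked 97, 8 and 6, the highest 4, 54 and 43, and those with the largest SD within groups 5, 20 and 3. Checks over 20 pathway lists and 11 cell type lists were void, since at most 20% of a list had a name. The authors' fold changes and p-values were not used. No sequence or position of a member is shown, since no genome of this build was used here.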

Additional observations from a re-analysis of the deposited data

Results flagged for a closer look

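In each group of breed, phase and RFI with 4 to 10 libraries, the mean level of the members and the CPM of the 8 named members were examined for a library far from the others, in 81 tests. Such a gap is met by chance in about 5% of groups, and 5 were found. ASB2 accounted for 3 of them, with 8.25 CPM in the CH H2 library of high RFI steer 860, 9.1 CPM in the HF ZG library of high RFI steer 2242 and 18.6 CPM in the HF ZG library of low RFI steer 1961, each the highest of its group. CITED4 had 23.5 CPM in the HF H1 library of low RFI steer 5632, the highest of its group. The mean log2 level of the members was 1.63 in the HF ZG library of low RFI steer 5635, the lowest of the 90 libraries. The causes were not tested.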

How the results depend on the processing

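The members called by RFI were 0 in all comparisons and alternatives except CH ZG with DESeq2, where 9 were called. In H1, 0 members were called between the breeds with the steer as replicate block and 0 with all 12 groups in 1 fit, against 6, and in H2 1 member was called with all 12 groups in 1 fit, against 0. The fit with the replicate block, which also took all 90 libraries together, changed no other call. Among the 100 members, the rule chose again 31 with TMM-scaled totals, 63 with a pseudocount of 2, 30 with medians, 61 with a mean CPM of 1 or more, 31 with 20 or more, 10 with ZG and H2 within 0.2, 11 with no limit on that difference, and, as an alternative chosen after seeing the data, 43 without the libraries with a TMM factor under 0.8. Leaving out each CH ZG steer in turn gave 23 to 78, with 23 without steer 788, 37 without 437, 46 without 307 and 55 without 1816. With RFI groups weighted equally 91 were chosen again. The median RFI fold change in CH ZG ran from -0.93 to -0.44 as each steer was left out, and that between breeds in ZG from 0.03 to 0.29. The causes of these changes were not tested. The fold changes of the 6 members called between breeds in H1, of the 8 named members by RFI in CH ZG, and of the members with the smallest p in CH H1, HF H1 and all libraries kept their direction in every alternative run, whereas the members' median turned from 0.19 to -0.13 (RFI in HF ZG) and from 0.11 to -0.19 (breeds in ZG) without the libraries with a TMM factor under 0.8. Low counts limit CITED4, ASB2 and NR0B2 most, and 6 CH ZG libraries limit every value of that group.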

Other observations

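Of the 6 members that followed the others least, the member ranked 43 had a mean of 433 CPM, with a correlation of 0.35 to the mean of the other members, and single libraries stood high in each phase: its highest value was 1438 CPM in CH H2 and 1531 CPM in HF ZG, against 740 CPM in CH H1 and 1131 CPM in HF H1. Those ranked 84 and 86 (ASB2) had correlations of -0.03 and 0.04. The member with the largest SD within groups, 1.16 on the log2 scale, was the one ranked 5, with 6.92 to 95.1 CPM in CH H1 and 0.59 to 44.5 CPM in HF ZG.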
